A study of Vitis vinifera with 2 samples.

Results

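Among intergenic transposable elements (TEs) of grapevine that were densely methylated in the CHG context in both embryogenic callus (EC) and leaf, a small set carried little CHH methylation in EC. An intergenic TE is an annotated repeat that does not overlap a gene annotation, a genic TE is a repeat that does, and H stands for A, C or T. A TE was taken as CHG-rich when its listed methylation level at CHG cytosines was at least 60% in EC and also in leaf. CHG-rich intergenic TEs with an EC CHH methylation level under 15% are called low-CHH TEs here, and those at 15% or more are the comparison TEs. There were 272 low-CHH TEs and 47412 comparison TEs among 47684 CHG-rich intergenic TEs. They were drawn from 140848 intergenic TEs, and from 184251 TEs of both classes, listed in at least 1 context. The members were therefore chosen on CHG methylation in both tissues and on CHH methylation in EC, and those values describe the choice.

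The samples were proliferating EC and young leaf tissue of Vitis vinifera cv. Chardonnay, with 1 whole-genome bisulphite sequencing library each. Per the study's methods, EC was raised from anthers and kept on solid medium in the dark. The harvested cultures of several Petri dishes were pooled, while young leaves were taken from the same vines. EC is thus a cultured, dividing cell mass of anther origin and leaf is a differentiated organ. An effect of culture, with its growth in the dark, and an effect of tissue therefore cannot be told apart. Without replicate libraries no test between tissues was possible, and TEs are not replicates, so differences are set against their spread over the 19 chromosomes. Cell type markers cannot be checked in DNA methylation values of TEs.

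Plants methylate cytosines in each context by a different route. CG methylation is copied to the new DNA strand by MET1 and CHG methylation is kept by the chromomethylase CMT3, which is recruited by methylated histone H3. CHH sites have no partner on the other strand and have to be methylated anew after replication, by CMT2 in heterochromatin or by DRM2 through small RNAs in RNA-directed DNA methylation. In most plant genomes silenced TEs carry methylation in all of these contexts. No sequence of the TEs is shown, as no genome of the assembly behind the coordinates was used here.

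The low-CHH TEs made up 0.570% of CHG-rich intergenic TEs and 0.336% of the 80899 intergenic TEs listed for both CHG and CHH. An EC CHH level under 15% was by itself more frequent, as 7798 of those 80899 TEs (9.64%) had it, and 390 of the 7798 were at 60% or more CHG in EC. Mean EC CHH methylation was 11.6% (SD 2.90, n = 272 TEs) for low-CHH TEs and 40.5% (SD 11.03, n = 47412 TEs) for comparison TEs, as the rule sets. There was no gap at the limit of the rule. The counts of CHG-rich TEs were 9 at an EC CHH level under 5%, 62 from 5 to 10%, 201 from 10 to 15% and 728 from 15 to 20%, and they rose steadily to 10990 from 35 to 40%. The low-CHH TEs were thus the lower end of a single continuous distribution, as the plot of EC CHH levels shows.

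**Figure D1:**
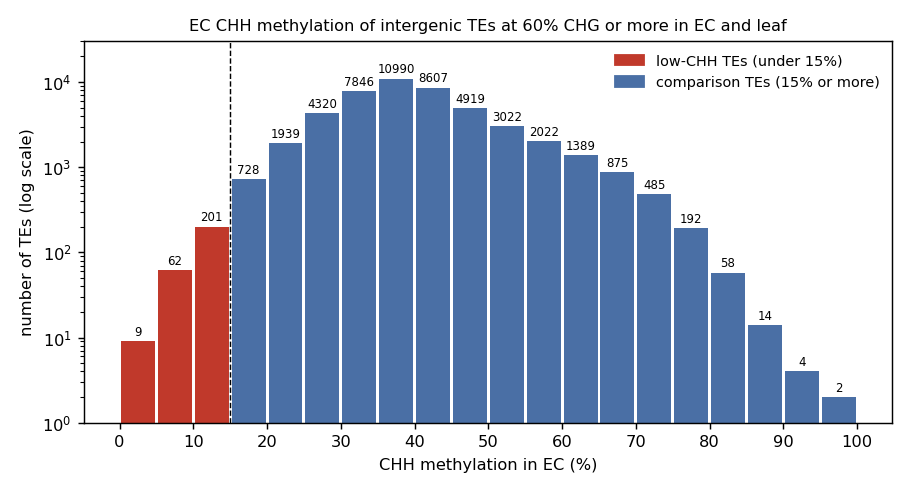
Number of CHG-rich intergenic TEs (log scale) in steps of 5 percentage points of EC CHH methylation, with low-CHH TEs in red, comparison TEs in blue and the limit of 15% as a dashed line. The counts run on without a gap at the limit, with 201 TEs just below it and 728 just above it.

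TEs on either side of the limit had similar values. Among TEs of at least 1000 bp listed in all 3 contexts, those nearest below it were at 14.96%, 14.7% and 14.55% EC CHH. They were a TE of 1422 bp on an unplaced sequence of chromosome 7, a TE of 1342 bp at chr5:14694491-14695832 and a TE of 1730 bp at chr17:11217788-11219517. Those nearest above it were at 15.44% (chr7:6341356-6344210), 15.57% (chr14:13960087-13961976) and 15.64% (chr18:14050638-14051882). CHG methylation was lower in EC than in leaf in all 6 of them, with differences (EC minus leaf) from -29.6 to -2.39 percentage points.

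The working description of these TEs as resistant to a gain of CHH methylation held in part. CHH methylation was higher in EC than in leaf in 269 of the 272 low-CHH TEs (98.9%), against 47676 of all 47684 CHG-rich intergenic TEs, which is 100% to 3 significant digits. It was lower in EC in 2 members, against 0.0147% of CHG-rich intergenic TEs, and equal in 1. The mean was 11.6% in EC and 1.60% in leaf, and the median difference was 10.6 percentage points (quartiles 8.42 and 12.3). Among comparison TEs the mean was 40.5% in EC and 4.01% in leaf, with a median difference of 35.4 percentage points (quartiles 29.9 and 41.9). A gain of at least 10 percentage points was present in 149 low-CHH TEs, against 99.7% of CHG-rich intergenic TEs and 89.7% of all intergenic TEs. The smaller size of the gain is set by the rule, which keeps EC CHH of members under 15%, while its presence in nearly all members is not.

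The exceptions were 3 TEs of at most 346 bp. A TE of 147 bp at chr14:15670096-15670242 had 11.6% CHH in EC and 13.2% in leaf, and a TE of 346 bp at chr18:28408163-28408508 had 14.9% in EC and 16.1% in leaf. A TE of 25 bp at chr19:20392147-20392171 was at 0 in both tissues. A leaf CHH level of 10% or more was found in 3 of the 272 members (1.10%), against 4.53% of comparison TEs. They were the first 2 of these TEs and the longest member, with 12.4% in EC and 11.04% in leaf.

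Leaf CHH methylation was not part of the rule, although it came from the same TEs. It averaged 1.60% (SD 1.89) in low-CHH TEs and 4.01% (SD 3.83) in comparison TEs, with medians of 1.205% and 3.20%. The difference of the means was -2.41 percentage points and was negative on 19 of 19 chromosomes, from -3.19 to -1.11 (SD 0.585 over chromosomes). A leaf CHH value of 0 was listed for 57 low-CHH TEs (21.0%) and for 428 comparison TEs (0.903%). TEs with little CHH methylation in EC thus also had less of it in leaf. Of the 57 zeros, 56 were in TEs under 500 bp, where 25.1% of low-CHH TEs and 2.33% of comparison TEs had a 0. The means under 500 bp were 1.41% in 223 low-CHH TEs and 4.53% in 16844 comparison TEs. Among TEs of at least 500 bp the means were 2.47% in 49 low-CHH TEs and 3.73% in 30568 comparison TEs. With comparison TEs weighted to the length classes of the members, the difference was -2.91 percentage points.

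**Figure D2:**
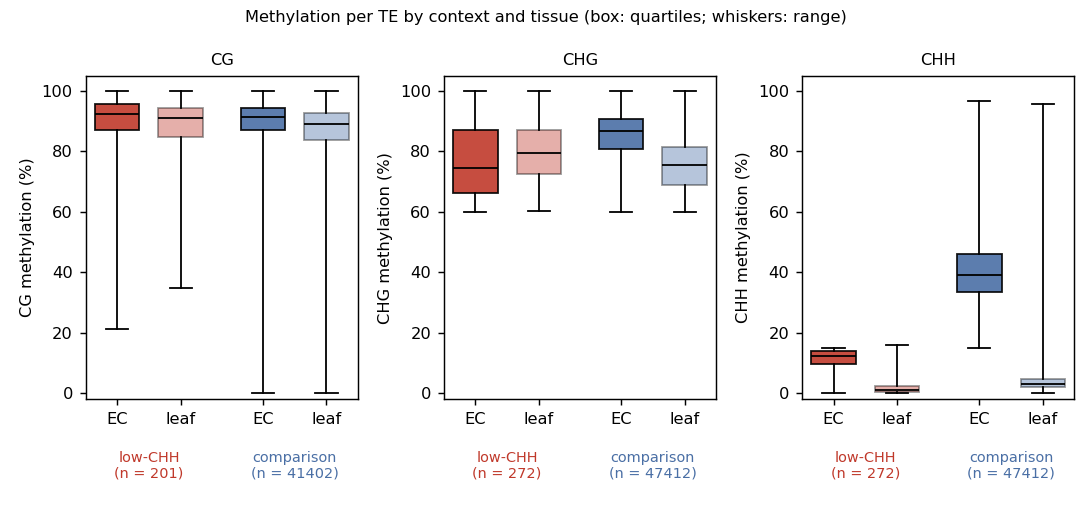
Methylation per TE (%) in the CG, CHG and CHH contexts, with EC left of leaf, low-CHH TEs in red and comparison TEs in blue. Boxes give the quartiles and median and whiskers the full range. The median CHG level was 74.6% in EC and 79.4% in leaf in low-CHH TEs, but 86.6% in EC and 75.4% in leaf in comparison TEs, and CG levels overlapped throughout.

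CG methylation, the context that is copied most faithfully through cell division, had means in low-CHH TEs close to those in comparison TEs. A CG value was listed for 201 of 272 low-CHH TEs (73.9%) and for 41402 of 47412 comparison TEs (87.3%). Mean CG methylation of low-CHH TEs was 89.1% in EC and 87.6% in leaf (SD 11.2 and 11.1), and that of comparison TEs was 89.4% in EC and 86.9% in leaf (SD 7.99 and 9.06). The difference in EC was -0.301 percentage points, and it was positive on 10 and negative on 9 chromosomes with an SD of 5.61. Taking medians turned its sign, to 0.86. The mean CG change, EC minus leaf, was 1.51 percentage points in low-CHH TEs and 2.48 in comparison TEs, a difference that was negative on 12 of 19 chromosomes with an SD of 3.69.

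CG changes of single low-CHH TEs went both ways. CG methylation was higher in EC in 120 and lower in 79 of the 201, or 59.7% and 39.3%, where 66.7% and 33.0% of CHG-rich intergenic TEs were higher and lower. A difference of at least 10 percentage points was reached by 35 TEs upwards and 17 downwards (17.4% and 8.46%, against 12.2% and 4.67% of CHG-rich intergenic TEs). An EC CG level under 60% was found in 8 of the 201 (3.98%), against 437 of 41402 comparison TEs (1.06%). With TEs of all lengths pooled, CG levels of low-CHH TEs were thus more widely spread, with a median of 92.3% in EC, against 91.5% in comparison TEs. The spread differed less among short TEs. Among TEs under 500 bp the SD was 11.1 in low-CHH and 10.1 in comparison TEs in EC, and 10.8 and 11.2 in leaf. Their medians in EC were 92.7% and 92.8%, and 3.21% and 2.03% of them had an EC CG level under 60%. CG was higher in EC by at least 10 percentage points in 17.9% and 13.7% of them, and lower by as much in 7.69% and 6.27%. Among TEs of at least 500 bp the SD in EC was 11.2 and 6.94.

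CHG methylation was used by the rule in both tissues, so its change is given as a description. It averaged 76.6% in EC and 79.3% in leaf in low-CHH TEs, a change of -2.68 percentage points (SD 14.2). In comparison TEs it averaged 85.0% in EC and 75.5% in leaf, a change of 9.50 percentage points (SD 9.82). CHG methylation was lower in EC in 163 low-CHH TEs and higher in 109, while 15.2% of all CHG-rich intergenic TEs were lower and 84.7% higher. It was lower by at least 10 percentage points in 82 low-CHH TEs (30.1%), against 4.09% of CHG-rich intergenic TEs, and higher by as much in 57 (21.0%, against 50.8%). The mean change was negative for low-CHH TEs on 17 of 19 chromosomes and positive for comparison TEs on 19 of 19. At a CHG limit of 70% the opposite signs were lost, with a mean change of 0.530 in low-CHH TEs and 7.83 in comparison TEs. No TE under 60% CHG could enter either set. Just above this limit, between 60% and 65% CHG in EC, lay 60 low-CHH TEs (22.1%), against 2.69% of comparison TEs.

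Short and long members differed in this respect. The 49 low-CHH TEs of at least 500 bp had a mean CHG level of 68.5% in EC and 79.9% in leaf, a change of -11.4 percentage points (SD 11.2), and 42 of the 49 were lower in EC. Of these 49, 25 (51.0%) lay just above the limit of the rule, between 60% and 65% CHG in EC. That share was 15.7% of low-CHH TEs under 500 bp and 1.82% of comparison TEs of at least 500 bp. Comparison TEs of at least 500 bp had 84.9% in EC and 74.4% in leaf, a change of 10.5 percentage points, and 10.7% of them were lower in EC. The 223 low-CHH TEs under 500 bp were at 78.4% in EC and 79.2% in leaf, a change of -0.770 percentage points, with 121 of 223 (54.3%) lower. Comparison TEs under 500 bp were at 85.2% in EC and 77.6% in leaf, a change of 7.64 percentage points, and 22.7% of them were lower. Lower CHG methylation in EC was therefore more frequent in low-CHH TEs than in comparison TEs of either length, and more frequent among the longer members, as the plot of CHG change against TE length shows.

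**Figure D3:**
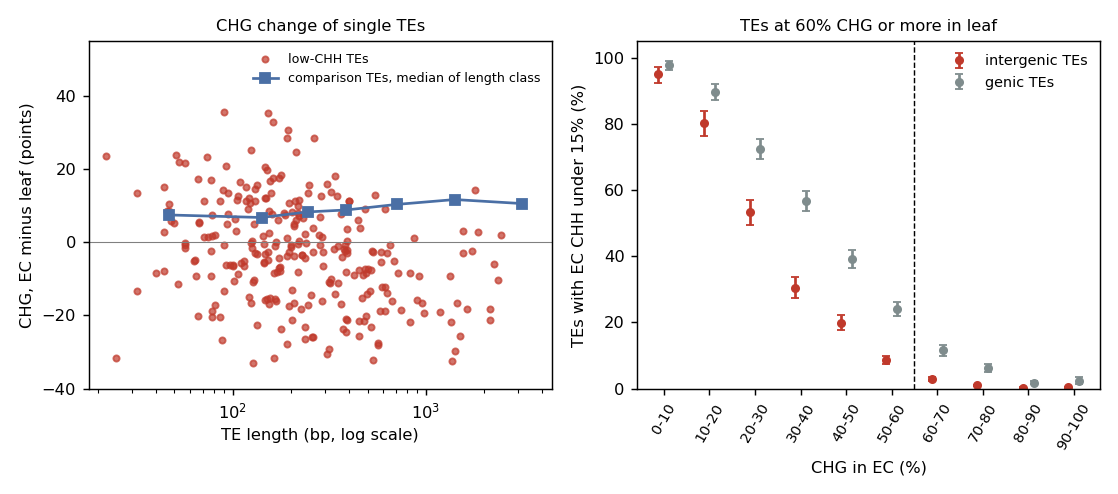
Left, CHG methylation in EC minus leaf (percentage points) against TE length (log scale) for each low-CHH TE (red), with the median of the comparison TEs in each length class up to 5000 bp (blue squares, at the middle of the class). Right, share of TEs with EC CHH under 15% by EC CHG level, for intergenic (red) and genic (grey) TEs at 60% or more CHG in leaf, with exact 95% intervals and the limit of 60% as a dashed line. Long low-CHH TEs lie mostly below 0, and the intergenic share runs from 95.2% in the lowest EC CHG class to 0.339% in the highest.

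The limit of 60% CHG in EC cut through a wider pattern. At 60% or more CHG in leaf and under 15% CHH in EC there were 1970 intergenic TEs, of which 687 were under 20% CHG in EC, 1011 were from 20% to under 60%, and the 272 low-CHH TEs (13.8%) were at 60% or more. Among intergenic TEs at 60% or more CHG in leaf, the share under 15% CHH in EC was 95.2% where EC CHG was under 10%, 53.3% where it was 20 to 30%, 8.54% where it was 50 to 60%, 2.85% where it was 60 to 70% and 0.339% where it was 90% or more. The low-CHH TEs were thus the CHG-rich end of a larger group in which little CHH methylation in EC went with little CHG methylation in EC. EC CHG and EC CHH methylation come from the same library, so these shares describe how the contexts were combined in single TEs.

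Low-CHH TEs were shorter than comparison TEs. Their median length was 202 bp (quartiles 121.5 and 391, range 22 to 2445), against 753 bp (quartiles 337 and 1708, range 15 to 35680). The difference of -551 bp was negative on 19 of 19 chromosomes, from -643 to -356.5 bp (SD 76.5). TEs under 200 bp made up 134 of 272 low-CHH TEs (49.3%) and 12.6% of comparison TEs, while those of at least 2000 bp made up 5 (1.84%) and 20.4%. Length was not used by the rule, and fragments of TEs are annotated as TEs of their own.

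The share of low-CHH TEs among CHG-rich intergenic TEs was lower in each longer class. It was 3.40% under 100 bp (53 of 1561, exact 95% interval 2.55 to 4.42), 1.79% from 100 to under 200 bp (81 of 4524), 0.669% from 300 to under 500 bp (44 of 6580), 0.269% from 500 to under 1000 bp (31 of 11531) and 0.0734% from 2000 to under 5000 bp (5 of 6815, interval 0.0238 to 0.171). None of 2862 TEs of 5000 bp or more was a member, which allows a share of up to 0.129%. These intervals cover counting error and take TEs as independent. The median EC CHH level hardly moved with length, at 38.1% under 100 bp and 39.2% from 5000 bp, but its SD over TEs was 15.6 percentage points in the shortest class and 5.30 in the longest. Very high values were likewise more frequent in short TEs, as 7.69% of TEs under 100 bp and none of those of 5000 bp or more reached 65% EC CHH. Both ends of the distribution were thus wider in short TEs. The depth of single values is not known, and the part of this wider spread in the share of low-CHH TEs was not tested.

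**Figure D4:**
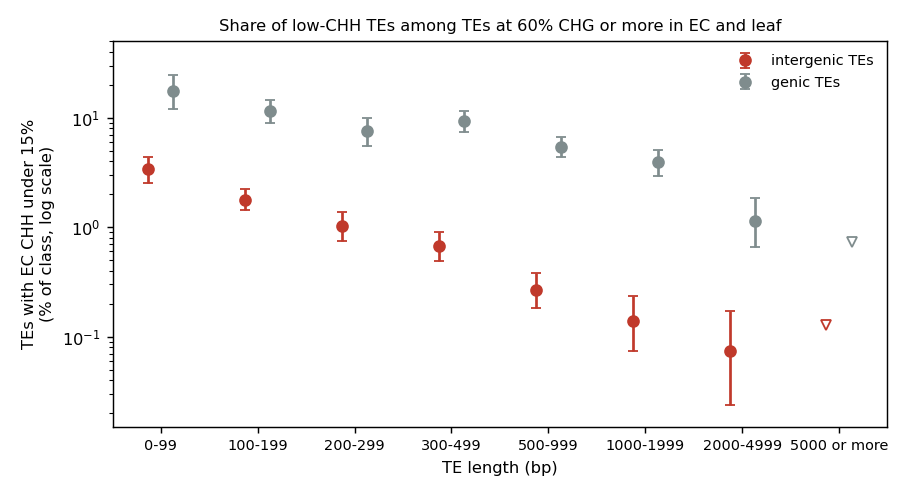
Share of TEs with EC CHH under 15% (log scale) among CHG-rich intergenic (red) and CHG-rich genic (grey) TEs by TE length, with exact 95% intervals. Open triangles mark the upper limit where no TE was found. The intergenic share is 3.40% under 100 bp and 0.0734% from 2000 to under 5000 bp, and the genic share lies above it in each class where both had a member.

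Length, leaf CHH and CHG change all ran on across the limit of 15%. Median length was 169.5 bp for TEs from 5 to 10% EC CHH, 209 bp from 10 to 15%, 316.5 bp from 15 to 20%, 395 bp from 20 to 25% and 1087 bp from 35 to 40%, and it was 438 bp at 60% and above. The median CHG change was -2.94 percentage points from 5 to 10% EC CHH, -2.74 from 10 to 15%, -0.615 from 15 to 20%, 2.02 from 20 to 25% and 11.3 from 35 to 40%. Median leaf CHH was 0.72% from 5 to 10% EC CHH, 1.36% from 10 to 15%, 1.90% from 15 to 20% and 6.53% at 60% and above. Median EC CG stayed between 90.95% and 93.03% in all of these classes.

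**Figure D5:**
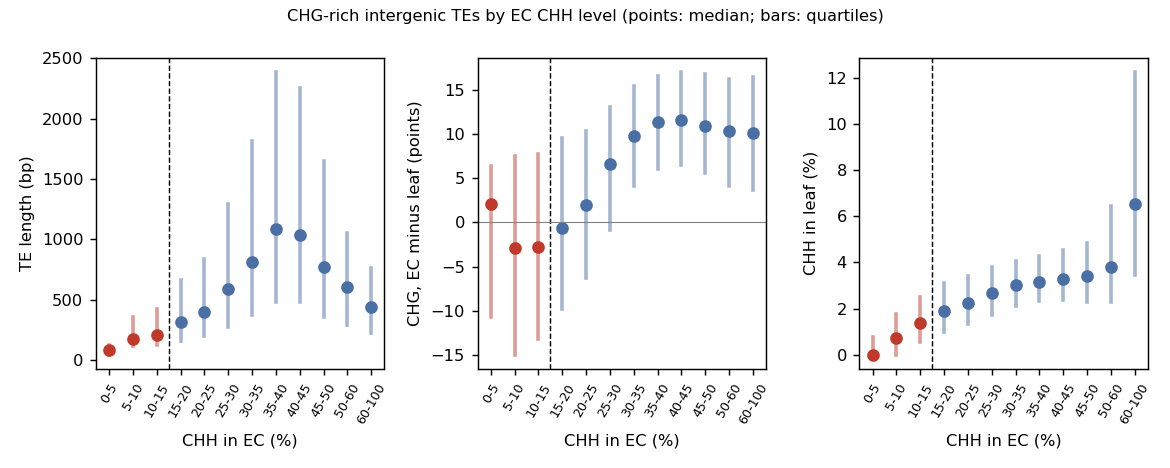
Median (points) and quartiles (bars) of TE length in bp, of CHG in EC minus leaf in percentage points and of leaf CHH in %, for CHG-rich intergenic TEs in classes of EC CHH level, with low-CHH TEs in red and comparison TEs in blue. None of the 3 measures has a step at the dashed limit of 15%, and median length is 209 bp just below it and 316.5 bp just above it.

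CHG-rich genic TEs gave a larger share of low EC CHH values. The share was 354 of 6751 genic TEs (5.24%), against 0.570% of intergenic TEs, and it was higher on 19 of 19 chromosomes, by 1.89 to 7.33 percentage points (SD 1.73). It was also higher within length classes, at 11.5% of genic and 1.79% of intergenic TEs from 100 to under 200 bp, and at 3.91% and 0.138% from 1000 to under 2000 bp. The genic TEs with low EC CHH had a mean CHG level of 71.9% in EC and 84.5% in leaf, a change of -12.6 percentage points, and 306 of 354 (86.4%) were lower in EC. The 6397 other CHG-rich genic TEs had 79.5% in EC and 77.7% in leaf, a change of 1.76 percentage points, and 42.4% of them were lower in EC. The change in intergenic low-CHH TEs was -2.68 percentage points over all lengths and -11.4 in those of at least 500 bp. The value of -12.6 for genic TEs with low EC CHH covers all lengths and was not computed for the longer ones. All of these are descriptions, as both sets were chosen on CHG.

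The distance to the nearest genic TE differed little between low-CHH and comparison TEs, relative to the spread of that difference over chromosomes. The size and sign of the difference varied with TE length and with the limits of the rule. The median distance from edge to edge was 17998.5 bp for low-CHH TEs and 19649.5 bp for comparison TEs. The difference of -1651 bp was negative on 12 and positive on 7 chromosomes, with an SD of 7668 bp, and it was -2.5 bp once comparison TEs were weighted to the length classes of the members. At a CHG limit of 70% it turned to 1547 bp, and at an EC CHH limit of 10% it was -5370.5 bp. Among TEs of at least 500 bp it was -7986 bp, with medians of 12849 bp for the 49 low-CHH TEs and 20835 bp for comparison TEs, and 69.4% and 48.6% of them lay within 20 kb of a genic TE. A genic TE lay within 1 kb of 11 low-CHH TEs (4.04%), within 5 kb of 47 (17.3%) and within 20 kb of 154 (56.6%), against 2.09%, 13.3% and 50.6% of comparison TEs. Within 1 kb of a genic TE, 1.10% of CHG-rich intergenic TEs were members (11 of 1000, exact 95% interval 0.550 to 1.96), and beyond 50 kb 0.478% were (51 of 10676, interval 0.356 to 0.628). The share of genic TEs among all TEs of the surrounding 1 Mb had a median of 17.3% for low-CHH TEs and 17.6% for comparison TEs.

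The nearest other intergenic TE that did not overlap was used as a view of the surroundings, since its values were not part of the rule. Its median EC CHH level was 28.3% beside low-CHH TEs and 37.5% beside comparison TEs. The difference of -9.24 percentage points was negative on 19 of 19 chromosomes, from -20.8 to -1.32 (SD 5.52). The neighbour lay within 5 kb in 268 cases, and 36 of these neighbours (13.4%) were themselves under 15% EC CHH, against 4.36% beside comparison TEs. The neighbour was itself a member in 3 of these 268 cases (1.12%), against 122 of 46834 (0.260%) beside comparison TEs. The median CHG level of the neighbours was 75.3% in EC and 73.1% in leaf beside low-CHH TEs, and 85.3% in EC and 72.6% in leaf beside comparison TEs. The neighbours thus had similar leaf CHG levels and differed in EC. Beside the 49 low-CHH TEs of at least 500 bp the neighbour had a median of 18.9% CHH in EC, and its CHG level was 57.5% in EC and 76.5% in leaf (n = 32 neighbours listed for CHG). Neighbours were close, at a median of 129.5 bp from low-CHH TEs and 115 bp from comparison TEs, and the part of this closeness in the result was not tested.

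Another TE overlapped 67 low-CHH TEs (24.6%) and 30.6% of comparison TEs. The overlapping TE was longer in 47 of the 67 cases, no member lay wholly inside another TE, and the overlap with the longest had a median of 19 bp. That longest TE had a median EC CHH level of 23.2%, and 17 of 66 with a value were under 15%. Overlapping TEs share cytosines, and the same values were not computed for TEs overlapping comparison TEs, so these counts have no reference. The annotated strand was plus for 157 low-CHH TEs (57.7%, exact 95% interval 51.6 to 63.7) and for 48.1% of comparison TEs. The plus share was higher in low-CHH TEs on 15 of 19 chromosomes, by 8.32 percentage points on average over the 19 (SD 11.4), and the difference was not tested.

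Low-CHH TEs were found on all 19 chromosomes. Their share of CHG-rich intergenic TEs was from 0.309% on chromosome 6 (6 of 1940) to 1.07% on chromosome 11 (19 of 1781), with an SD of 0.193. It was 0.823% on unplaced sequences (21 of 2551, exact 95% interval 0.510 to 1.26) and 0.556% on chromosomes 1 to 19 (251 of 45133, interval 0.490 to 0.629). These intervals take TEs as independent, and the difference was not tested. Of the 21 unplaced members, 9 lay on the unplaced sequence of chromosome 18. Among 450 windows of 1 Mb with at least 20 CHG-rich intergenic TEs, 266 had no member, 127 had 1 and 57 had 2 or more. The highest shares were 2 of 30 on chromosome 13 from 2 to 3 Mb (6.67%), 2 of 35 and 2 of 54 on chromosome 11 from 2 to 3 Mb and from 4 to 5 Mb (5.71% and 3.70%), 3 of 82 on chromosome 5 from 17 to 18 Mb (3.66%) and 2 of 57 at the start of chromosome 19 (3.51%), all resting on at most 3 members. The most members in a window were 5 of 168 on chromosome 16 from 12 to 13 Mb and 5 of 243 at the start of the unplaced sequence of chromosome 18. Of 246 pairs of successive members, 9 overlapped or lay less than 5 kb apart, and the median gap was 804537 bp. Gaps between comparison TEs were not computed, so whether members lay closer together than other CHG-rich TEs was not tested.

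The longest members show the range of states that the rule took in. A TE of 2445 bp at chr19:10115288-10117732 had 12.4% CHH in EC and 11.04% in leaf, and 74.7% CHG in EC and 72.6% in leaf. It was nearly unchanged in both contexts. No CG value was listed for it, while 17 of the 18 members of at least 1000 bp were listed in all 3 contexts. The depth behind its CHG and CHH values is not known. A TE of 2380 bp at chr2:11720957-11723336 had 10.2% CHH in EC and 1.76% in leaf, 64.4% CHG in EC and 74.6% in leaf, and 94.7% CG in EC and 86.6% in leaf. It lay 1665 bp from a genic TE. A TE of 2267 bp at chr9:15258057-15260323 had 14.3% CHH in EC and 2.90% in leaf, and 60.6% CHG in EC and 66.6% in leaf. The remaining pair had the same length of 2147 bp, which 8 of the listed TEs share. At chr11:16092442-16094588 CHH was 13.5% in EC and 3.62% in leaf and CHG was 67.9% in EC and 86.2% in leaf. At chr15:4564746-4566892 CHH was 11.7% in EC and 3.06% in leaf and CHG was 60.6% in EC and 81.9% in leaf. Both of these had CG above 91% in EC and in leaf, and both had a neighbour with 17.4% CHH in EC.

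Among 17 members of at least 1000 bp listed in all 3 contexts, the lowest EC CHH level was 7.24%, in a TE of 1369 bp at chr14:24329728-24331096. Its leaf CHH was 1.28%, its CHG was 60.2% in EC and 92.6% in leaf, and its CG was 83.7% in EC and 94.9% in leaf, so that both symmetric contexts were lower in EC. The region around it was chosen for display after its values were seen. From 24323815 to 24337667 on chromosome 14 there were 13 intergenic TEs, and CHG was lower in EC in 9 of the 12 listed for CHG. The 6 TEs before the immediate neighbour of the member had CHG levels of 10.8 to 43.95% in EC and 37.6 to 80.1% in leaf, with EC CHH from 5.90 to 13.9%. The immediate neighbour, between these TEs and the member, had 23.5% CHH in EC, and 54.5% CHG in EC and 56.9% in leaf. The TE that followed the member had 27.8% CHH in EC. From the first of these TEs to the member, only the member was at 60% or more CHG in EC. Farther on in the region, a TE of 313 bp had 75.5% CHH and 98.2% CHG in EC.

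The next lowest had the opposite CHG change. A TE of 1804 bp at chr11:15220103-15221906 had 8.36% CHH in EC and 2.17% in leaf, while its CHG was 87.8% in EC and 73.3% in leaf and its CG 92.0% in EC and 87.0% in leaf. It lay 953 bp from another member of 1859 bp, which had 12.04% CHH in EC and 2.36% in leaf and 79.0% CHG in EC and 76.2% in leaf. The 2 TEs on its other side had 23.1% and 28.99% CHH in EC. CHG was higher in EC in all 4 TEs of this stretch, which was also chosen after its values were seen. Of the 49 members of at least 500 bp, 7 had higher CHG in EC, and 3 of these 7 lay on chromosome 11 between 15055846 and 15224718.

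The other named members of at least 1000 bp with the lowest EC CHH levels, apart from the chromosome 2 TE given above, lost CHG methylation by more than 20 percentage points. A TE of 1506 bp at chr1:15707220-15708725 had 10.4% CHH in EC and 1.96% in leaf, and 65.3% CHG in EC and 90.8% in leaf. A TE of 1347 bp at chr19:15376620-15377966 had 11.6% CHH in EC and 3.55% in leaf, and 60.5% CHG in EC and 82.2% in leaf. Their CG levels in EC were 88.2% and 90.5%. Near the chromosome 2 TE, an overlapping TE of 2731 bp had 17.8% CHH in EC and 2.47% in leaf, and EC CHH was between 28.3% and 41.2% in the 5 intergenic TEs that followed it.

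Some short members bordered TEs with far higher CHH methylation. On the unplaced sequence of chromosome 18, 3 members of 134, 86 and 246 bp lay within 120496 to 120984, in a region chosen after its values were seen. Their CHH levels were 7.53%, 10.9% and 13.99% in EC and 1.66%, 1.51% and 0.85% in leaf, and their CHG levels were 95.8%, 88.5% and 87.2% in EC and 80.1%, 77.2% and 73.7% in leaf. The TE of 5157 bp that ended at the base before the first of them had 40.3% CHH in EC and 2.74% in leaf, and 88.7% CHG in EC and 80.6% in leaf. EC CHG methylation was thus 87.2% or more on both sides of this border, while EC CHH methylation was 40.3% on one side and at most 13.99% on the other.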

How the data were processed

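Whole-genome bisulphite libraries were available for EC and leaf, 1 each, assigned by their tissue labels. As described in the study's methods, the authors used BS-Seeker2 to map reads to the PN40024 genome (12X assembly) and cgmaptools to call methylation and average it per TE, and a TE was listed when its effective coverage exceeded 20 in each library. The submitters' processing notes also name bedtools. The deposited values are fractions from 0 to 1 per TE, context and library, and were multiplied to percentages. They hold no read numbers, so the depth of a TE is unknown. Reads can be placed on the wrong copy of a repeat, which draws similar TEs together, and C-to-T differences between Chardonnay and the reference lower the values in both libraries.

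Tables of the 3 contexts were joined by position. Listed starts count from 0, as 5873 TEs start at the listed end of the TE before and 1454 start 1 above it, so 1 was added to the printed starts. Distances were taken from edge to edge on the same sequence. Means or medians and their differences were computed over all TEs and over 19 chromosomes with Python 3.11.15, numpy 2.4.6, pandas 2.3.3 and scipy 1.17.1, after the procedures had been tested on simulated data. Shares have exact (Clopper-Pearson) 95% intervals, which cover counting error only. Alternatives were other CHH and CHG limits, subsets of TEs, weighting to equal length and medians.

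The named TEs are the 5 longest members, the 5 of at least 1000 bp on chromosomes 1 to 19 listed in all 3 contexts with the lowest EC CHH, the 3 TEs of that length on each side of the limit, and the 5 windows of 1 Mb with the highest share. Members and lists were chosen with earlier results of these data known. Averaged profiles over TEs and genes were not used here, and base composition of the TEs was not analysed here.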

Additional observations from a re-analysis of the deposited data

Results flagged for a closer look

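The CHG change, EC minus leaf, had opposite signs in low-CHH TEs and comparison TEs. It averaged -2.68 percentage points in low-CHH TEs and 9.50 in comparison TEs, a difference of -12.2 percentage points that was negative on 19 of 19 chromosomes. The difference was not tested, as there was 1 library per tissue and the rule itself used CHG methylation in both. At a CHG limit of 70% both changes were positive, at 0.530 in low-CHH TEs and 7.83 in comparison TEs.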

How the results depend on the processing

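Of 67 values recomputed for 8 results, 54 kept their direction and stayed within the spread over chromosomes. A further 2, for CG in TEs listed in all 3 contexts, equal the reported values by construction, and 1, the share within 5 kb of a genic TE, was compared by direction alone. For EC CG, CG change and distance, the spread (SD 5.61 and 3.69 percentage points and 7668 bp) exceeded the difference itself (-0.301, -0.979 and -1651). Staying within it was therefore a weak check there, as distance differences of -2.5 and -7986 bp both passed. The share of low-CHH TEs was 0.149% with an EC CHH limit of 10%, 2.097% with a limit of 20% and 0.160% among TEs of at least 500 bp. The same minimum length brought the difference between low-CHH and comparison TEs to -21.9 percentage points for CHG change, -1.26 for leaf CHH and -18.4 for EC CHH of the neighbour. A CHG limit of 70% brought the CHG change difference to -7.30 and turned the difference in distance to 1547 bp. TEs listed in all 3 contexts gave a length difference of -661 bp, and medians turned the EC CG difference to 0.86. The cause of these shifts was not tested. Without replicate libraries, variation between plants, cultures and library preparations is not contained in any value. No paired analysis was possible because each tissue had 1 library.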

Other observations

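Beside the 272 low-CHH TEs, 118 further intergenic TEs under 15% CHH in EC had 60% or more CHG in EC but less than that in leaf.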
